A study of Mus musculus with 4 samples.

Results

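The interneuron identity genes considered here were 9 genes that mark or specify GABAergic interneurons of the mouse cortex. They were taken by symbol from the deposited expression table and all 9 were found among its 18854 genes. The set holds the homeobox factors Dlx1, Dlx2, Dlx5, Dlx6 and Lhx6, the zinc finger factor Sp9, the secreted protein gene Reln, the calcium-binding protein gene Calb2 and the receptor gene Erbb4. They were measured in cultured cortical neurons of wild-type mice, and all 4 libraries are labelled with 15 days in culture. In 2 libraries the neurons received the p53 activator, Nutlin-3, for 2 days. In the other 2 they received DMSO, the solvent, for a time that the labels do not give. Nutlin-3 is a small molecule that keeps the ubiquitin ligase Mdm2 from binding p53. The DMSO samples carry the treatment label of untreated cells, while their titles name DMSO. The labels give no age, sex or number of animals, and they do not tie replicates to separate cultures. The p-values here thus rest on spread between libraries that may be technical and that was largely borrowed across genes.

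Cortical interneurons arise outside the cortex, in the ganglionic eminences of the ventral forebrain, and migrate into it. Dlx1 and Dlx2 act early in the precursors and switch on Dlx5, Dlx6 and, through them, much of the GABAergic programme. Lhx6 acts in cells of the medial ganglionic eminence, which become parvalbumin and somatostatin interneurons, while Sp9 acts in several ventral lineages. Reelin, the product of Reln, is a secreted glycoprotein that guides neuronal layering in the embryo and is made by interneurons later. Calretinin, the product of Calb2, buffers calcium in a subset of interneurons, and ErbB4 is the neuregulin receptor that cortical interneurons carry.

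Promoter sequences were available for 6 of the 9 members, at 8 start sites, each running from 250 bases before the start to 50 after it (RefSeq, build GRCm38.p6). Those of Reln and Lhx6, which rose, and of Dlx1, which had a negative fold change that did not pass the test, follow 5′ to 3′. They were picked with these outcomes known, and a link between promoter sequence and response was not tested. Capitals mark the GC box GGGCGG, searched on both strands, which is the motif bound by the family of zinc finger factors that Sp9 belongs to.
Reln, chr5:22344656-22344955, minus strand: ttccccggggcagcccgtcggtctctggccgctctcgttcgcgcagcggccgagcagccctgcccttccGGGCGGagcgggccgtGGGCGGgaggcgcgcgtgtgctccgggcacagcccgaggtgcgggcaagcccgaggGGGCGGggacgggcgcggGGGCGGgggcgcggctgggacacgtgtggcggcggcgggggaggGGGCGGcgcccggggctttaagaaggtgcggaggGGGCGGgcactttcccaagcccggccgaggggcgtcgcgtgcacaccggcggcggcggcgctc
Lhx6, chr2:36105359-36105658, minus strand: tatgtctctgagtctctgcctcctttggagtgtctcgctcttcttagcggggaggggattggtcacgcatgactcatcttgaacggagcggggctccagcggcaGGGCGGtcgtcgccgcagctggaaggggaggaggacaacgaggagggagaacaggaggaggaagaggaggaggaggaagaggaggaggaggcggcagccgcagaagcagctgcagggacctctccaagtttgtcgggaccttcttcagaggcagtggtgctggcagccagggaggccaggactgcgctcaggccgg
Dlx1, chr2:71529195-71529494, plus strand: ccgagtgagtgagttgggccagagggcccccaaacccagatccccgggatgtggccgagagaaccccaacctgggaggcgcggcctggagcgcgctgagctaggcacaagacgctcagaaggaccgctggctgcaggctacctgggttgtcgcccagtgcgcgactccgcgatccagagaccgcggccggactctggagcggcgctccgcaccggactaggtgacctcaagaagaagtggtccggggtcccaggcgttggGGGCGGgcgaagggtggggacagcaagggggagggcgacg

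The Reln promoter held 6 GC boxes and was 80.7% G and C, against 63.3% for the most upstream of 3 Lhx6 starts and 69.3% for Dlx1, which held 1 GC box each. The other Lhx6 starts were 55.3% and 48.7% G and C, with 1 and 0 GC boxes. The windows of Dlx2 (66.3%) and Sp9 (63.7%) held 1 GC box each, and that of Erbb4 (55.3%) held 0. GC boxes were found in 35.7% of the 32851 promoters of the same length, whose median G and C content was 52.7%. The homeodomain core TAATT, searched on both strands, was found at 2 places in the Sp9 window and 1 in the window of the most downstream Lhx6 start, and 27.0% of all promoters held it. The p53 decamer motif, which is only part of a full p53 site, matched in 1 of the 8 member windows. That window was the one of Reln, with gggcaagccc from 123 to 114 bases before the start. The decamer matched in 8.36% of all promoters. Such matches are descriptions of the letters and not binding sites.

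Expression was given as CPM, read counts scaled to a common total per library, resting on totals of 19065197 and 17716272 reads in the p53 activator libraries and 14584247 and 14968028 in the DMSO libraries. Mitochondrially encoded RNAs took 8.95% and 9.98% of reads in the p53 activator libraries and 15.6% and 14.3% in the DMSO libraries, and nuclear protein-coding genes took 83.0% and 82.6% against 73.4% and 75.8%. CPM values share a fixed total, so the median protein-coding gene had a log2 fold change of 0.09 in CPM and -0.04 once these genes were rescaled within their own sum, a shift of -0.14. Each member is therefore given on both scales. Differences between replicates exceeded sampling noise: chi-square over its degrees of freedom was 5.16 for the p53 activator and 4.52 for DMSO.

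With the p53 activator, Reln, Calb2 and Lhx6 rose by 1.47-fold, 1.34-fold and 1.30-fold in mean CPM, and no member was called lower. Members were called at an adjusted p under 0.05 from limma on log2(CPM + 1) over 16654 genes. By that rule 16.9% of all genes tested were called higher, 16.3% lower and 33.2% in either direction, and 21.2% and 7.19% of protein-coding genes were called higher and lower. Of the 9 members 3 were called higher and 0 lower by limma. Lower at an unadjusted p under 0.05 was 1 member, Dlx1, which edgeR also called lower, and DESeq2 called 0 lower. The median log2 fold change of the 9 members was 0.18, beside 0.03 over all genes tested and 0.09 over protein-coding genes. Both p53 activator libraries lay above both DMSO libraries for 4 members, which 36.6% of all genes tested did, and below them for 2, as did 30.9% of all. Together that is 6 of 9 members without overlap, against 67.6% of all genes tested. The 9 members all passed the filter on low values. In bulk RNA, fewer cells of a type and less RNA per cell cannot be told apart.

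**Figure D1:**
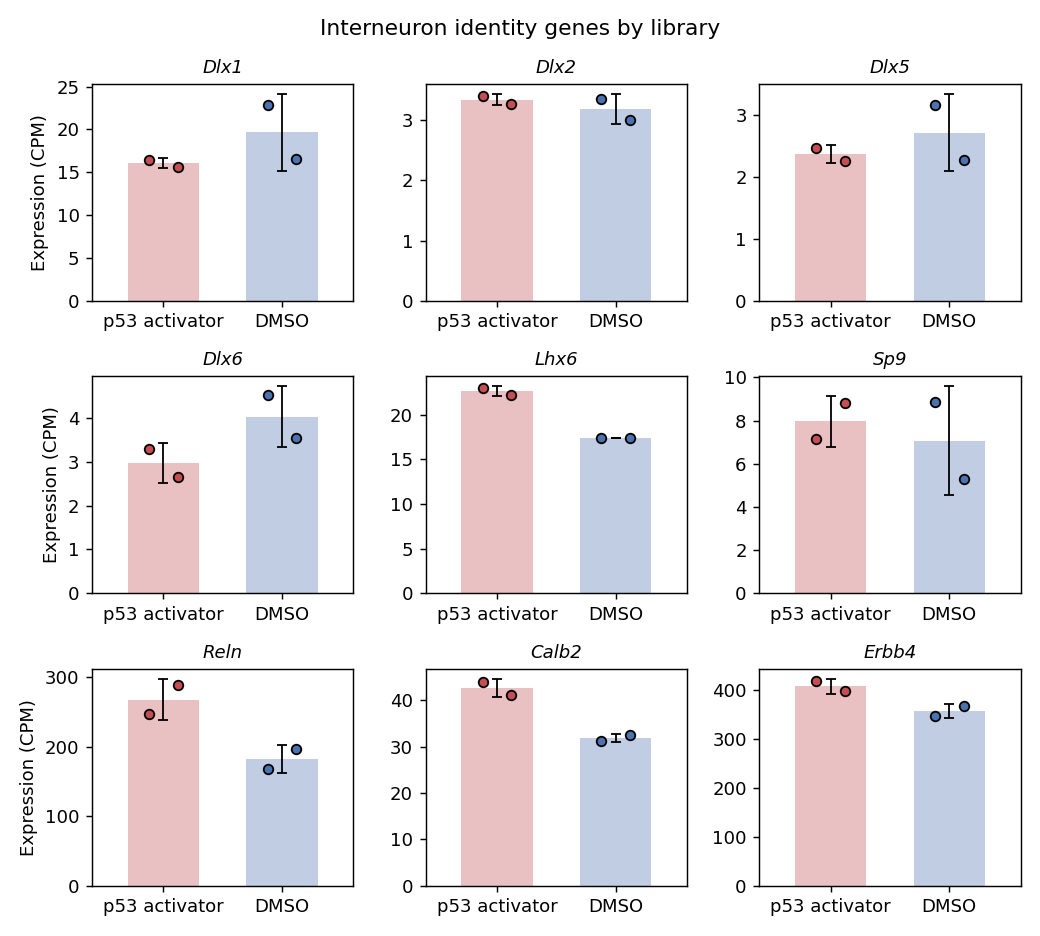
Expression in CPM of the 9 interneuron identity genes, with a point per library, bars at the mean and error bars of 1 SD (n = 2 libraries per group). For Reln, Calb2, Lhx6 and Erbb4 both p53 activator points lie above both DMSO points, and for Dlx1 and Dlx6 both lie below.

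Among the transcription factors, the 4 Dlx genes were near or below their DMSO levels. Dlx1 stood at 16.5 and 15.6 CPM with the p53 activator, against 22.8 and 16.5 CPM in DMSO, where the first library was well above the other 3. The p53 activator values lay below both DMSO values, but only just below the second. The log2 fold change of Dlx1 was -0.26 ± 0.12 (SE; limma, adjusted p = 0.0940). Rescaled within protein-coding genes, the fold change was -0.41 and Dlx1 was called lower (adjusted p = 0.0192), on a scale where 4.34% of protein-coding genes were called higher and 13.1% lower. In CPM, the fold change of Dlx1 was -0.04 without DMSO replicate 1 and -0.48 without DMSO replicate 2.

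Dlx2, the neighbour of Dlx1 that works with it in the precursors, stood at 3.41 and 3.27 CPM with the p53 activator and at 3.36 and 3.01 CPM in DMSO, and the groups overlapped. Its log2 fold change of 0.05 had a 95% interval of -0.32 to 0.43, and its sign turned when DMSO replicate 2 was left out and on rescaling within protein-coding genes (-0.06). These values rest on few reads, 65 and 58 in the p53 activator libraries and 49 and 45 in the DMSO libraries.

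Dlx5 and Dlx6 form the second neighbouring pair, which acts after Dlx1 and Dlx2. Dlx5 stood at 2.47 and 2.26 CPM with the p53 activator, against 3.15 and 2.27 CPM in DMSO. Those groups overlapped, with the first DMSO library high once more, and the log2 fold change of -0.13 had an interval of -0.53 to 0.26 and turned positive without that library. On rescaling within protein-coding genes it was -0.26. Dlx6 stood at 3.30 and 2.65 CPM with the p53 activator, against 4.53 and 3.54 CPM in DMSO. The p53 activator libraries were the lower ones, by a log2 fold change of -0.34 ± 0.19 (SE; limma, adjusted p = 0.166). It was -0.48 on rescaling within protein-coding genes, -0.11 with quantile normalization, -0.20 without DMSO replicate 1 and -0.22 without p53 activator replicate 2, with no call in any of these. Dlx6 rested on 63 and 47 reads in the p53 activator libraries and 66 and 53 in the DMSO libraries.

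The Dlx genes share their loci with noncoding RNAs, and no source says whether the counting used strand or introns. Where exons of opposite strands overlap in the annotation, as for Dlx1 with Dlx1as and Dlx6 with Dlx6os2, reads of the partners cannot be told apart without strand. Dlx6os1, the long noncoding RNA also called Evf2, runs opposite to Dlx6 and covers the whole annotated length of Dlx6, but their exons do not overlap, so that intronic reads alone, if counted, could mix them. It stood at 66.0 and 53.2 CPM with the p53 activator and 79.3 and 68.3 CPM in DMSO. Dlx6os1 fell (log2 fold change -0.31; limma, adjusted p = 0.00395), although it missed the threshold with no filter (adjusted p = 0.0686), in limma without trend (adjusted p = 0.167), on leaving out DMSO replicate 1 (-0.20, adjusted p = 0.222) and on leaving out p53 activator replicate 2 (-0.15, adjusted p = 0.274). Dlx6os2, at the same locus, fell as well, at 2.20 and 1.35 CPM with the p53 activator against 4.05 and 2.94 CPM in DMSO (-0.70, adjusted p = 0.00435), and the same libraries each ended its call when left out (adjusted p = 0.168 and 0.125). The Dlx6os2 call was also lost in DESeq2 (adjusted p = 0.0766), with quantile normalization (0.0819) and in limma without trend (0.0527). The summed CPM of Dlx6, Dlx6os1 and Dlx6os2 was 71.5 and 57.2 with the p53 activator and 87.8 and 74.8 in DMSO. Falls were common among such RNAs: of 1512 tested nuclear genes annotated to another class than protein-coding, 36.9% were called lower and 2.91% higher.

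At the other locus, Dlx1as runs opposite to Dlx1 and covers it from end to end. Dlx1as stood at 21.7 and 20.4 CPM with the p53 activator and at 18.5 and 18.2 CPM in DMSO (log2 fold change 0.18, limma adjusted p = 0.219). Dlx1 and Dlx1as thus had fold changes of opposite sign, neither of them called. Their summed CPM was 38.1 and 36.0 with the p53 activator and 41.3 and 34.7 in DMSO, and the groups overlapped.

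Lhx6 stood at 23.0 and 22.2 CPM with the p53 activator, against 17.4 CPM in each DMSO library. The groups were well apart and both were tight. Its log2 fold change was 0.36 ± 0.11 (SE; limma, adjusted p = 0.0106). The call was lost in 7 of 17 alternative settings, among them rescaling within protein-coding genes (0.22, adjusted p = 0.193), DESeq2 (adjusted p = 0.105) and leaving out DMSO replicate 1, DMSO replicate 2 or p53 activator replicate 1 (adjusted p = 0.0734, 0.0504 and 0.0686), while the fold change stayed between 0.22 and 0.38.

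Sp9 stood at 7.13 and 8.81 CPM with the p53 activator and at 8.85 and 5.28 CPM in DMSO. The DMSO libraries lay on either side of both p53 activator libraries. Its log2 fold change of 0.18 had a 95% interval of -0.15 to 0.52. It was 0.05 on rescaling within protein-coding genes and -0.14 without DMSO replicate 2. Part of Sp9 is overlapped on the opposite strand by Cir1 in the annotation.

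Of the genes for proteins outside the nucleus, Reln changed most. It stood at 246 and 289 CPM with the p53 activator, against 168 and 197 CPM in DMSO. Every p53 activator library was above every DMSO library, with reads numbering 4699 and 5112 against 2454 and 2943. The log2 fold change was 0.55 ± 0.08 (SE; limma, adjusted p = 2.52e-08), the 95% interval ran from 0.39 to 0.71, and the call was kept in all 17 alternatives (0.36 to 0.66), at 0.40 on rescaling within protein-coding genes. Reln came nearest the threshold in limma without trend (adjusted p = 0.0407). Of all genes tested, 0.234% had a higher fold change.

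Calb2 stood at 44.0 and 41.2 CPM with the p53 activator, against 31.3 and 32.4 CPM in DMSO. The groups did not overlap, and the gap between them was wider than the spread within each. Its log2 fold change was 0.41 ± 0.09 (SE; limma, adjusted p = 0.000393), and it stayed called in all 17 alternatives (0.26 to 0.46). On rescaling within protein-coding genes it was 0.26 (adjusted p = 0.0388). In limma without trend the adjusted p was 0.0449.

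Erbb4 stood at 418 and 397 CPM with the p53 activator and 346 and 367 CPM in DMSO. Both p53 activator libraries were the higher ones, yet the log2 fold change of 0.19 ± 0.08 (SE) missed the threshold (limma, adjusted p = 0.0552), with a 95% interval of 0.03 to 0.35. The fold change was 0.04 on rescaling within protein-coding genes and -0.02 after cyclic loess. Erbb4 was called at a minimum of 5 CPM (adjusted p = 0.0483).

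**Figure D2:**
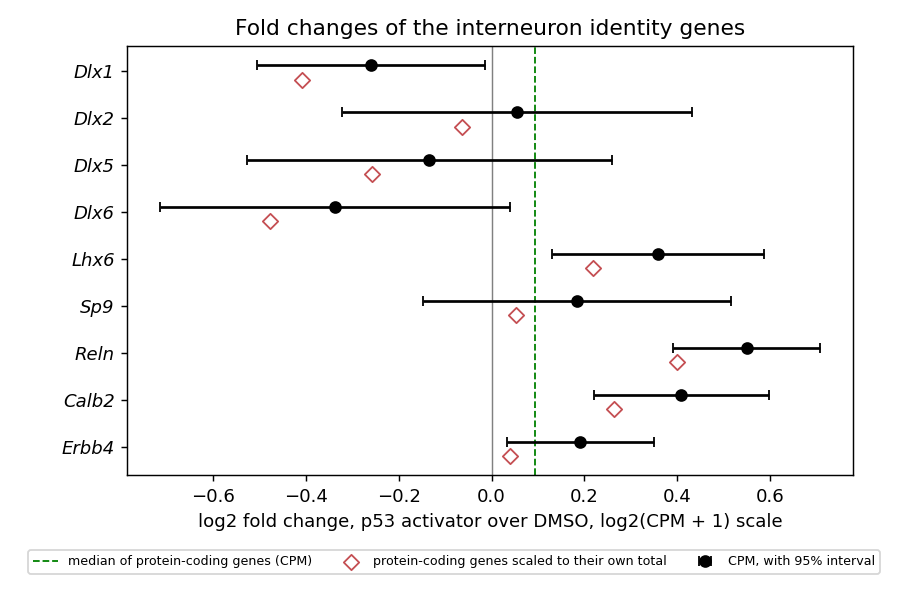
log2 fold changes of the 9 members, p53 activator over DMSO, on the log2(CPM + 1) scale; filled points are the CPM values with 95% intervals, open diamonds the values after rescaling within protein-coding genes, and the dashed line is the protein-coding median in CPM, 0.09. Reln, Calb2 and Lhx6 lie right of that line with their whole intervals, and all 9 diamonds lie left of their filled points.

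To set levels of different members side by side, CPM was divided by the kilobases of annotated exon. With the p53 activator, Erbb4 (33.0 ± 1.20 CPM per kilobase), Calb2 (24.4 ± 1.14) and Reln (11.3 ± 1.253) led (SD, n = 2), followed by Lhx6 (4.71 ± 0.116) and Dlx1 (2.97 ± 0.109). In DMSO the first 3 kept that order at 28.9 ± 1.19, 18.3 ± 0.461 and 7.69 ± 0.845, while Lhx6 (3.63 ± 0.00311) and Dlx1 (3.64 ± 0.830) did not differ beyond their spread. Sp9, Dlx6, Dlx2 and Dlx5 stood between 1.04 and 1.58 with the p53 activator and between 1.11 and 1.70 in DMSO, and in DMSO each of them overlapped its neighbours in the order. Whether intronic reads were counted is not given in the sources used here. Erbb4 spans 1076 kilobases and Reln 460 kilobases, against 12.4 and 23.7 kilobases of exon, and per kilobase of the whole gene the order at the top changed. On that measure Dlx1 led with 2.74 CPM per kilobase with the p53 activator and 3.35 in DMSO, and Erbb4 was last with 0.379 and 0.332.

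GAD mRNA gave another yardstick, since Gad1 and Gad2 encode the enzymes that make GABA in interneurons, and a ratio within a library does not depend on how CPM is scaled. Each member was expressed as a percentage of the summed CPM of Gad1 and Gad2 in the same library, as a description chosen after the values were seen. The sum was 584 and 570 CPM with the p53 activator and 447 and 476 CPM in DMSO. Dlx1 stood at 2.82% and 2.74% of it with the p53 activator, against 5.11% and 3.46% in DMSO. Dlx6 stood at 0.565% and 0.465%, against 1.01% and 0.743% in DMSO. Dlx5 stood at 0.422% and 0.396% with the p53 activator, against 0.706% and 0.477% in DMSO, and Dlx2 at 0.583% and 0.574%, against 0.752% and 0.631%. All 4 Dlx genes were thus lower in both p53 activator libraries than in both DMSO libraries, and so was Erbb4, at 71.5% and 69.6% against 77.5% and 77.1%. That direction is the usual one on this scale, where 68.8% of all genes tested lay below and 2.78% above without overlap.

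Reln lay on the other side, at 42.2% and 50.6% of the GAD sum with the p53 activator and 37.7% and 41.3% in DMSO. Calb2 did too, at 7.38% ± 0.213 with the p53 activator against 6.90% ± 0.138 in DMSO (SD, n = 2 each). For Lhx6 the averages were 3.92% with the p53 activator and 3.78% in DMSO, with the groups all but touching. Sp9 overlapped between groups.

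**Figure D3:**
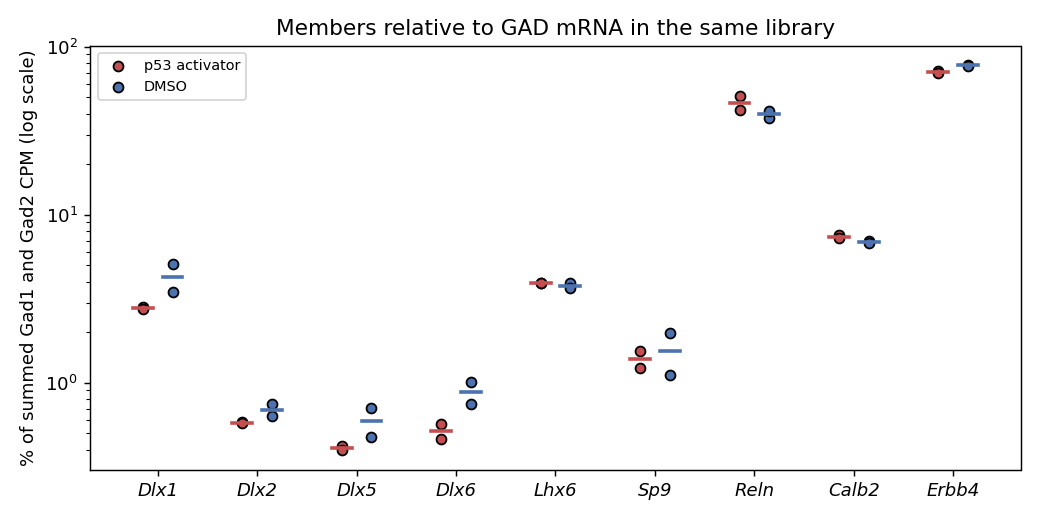
Each member as a percentage of the summed Gad1 and Gad2 CPM of the same library (log scale), a point per library and a line at the mean of 2 libraries per group. The p53 activator points of the 4 Dlx genes and Erbb4 lie below their DMSO points, and those of Reln and Calb2 lie above.

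Other genes listed for a part in the interneuron programme were read from the same test. Which cells of the cultures made their RNA was not tested. Of 21 further transcription factors, 18 were listed and 15 tested. Of those, 0 rose and 1 fell by limma, or 0% and 6.67%, with a median log2 fold change of 0.15. The shares were 16.9% and 16.3% over all genes tested and 21.2% and 7.19% over protein-coding genes. None of the 15 was higher at an unadjusted p under 0.05 (0 genes), and edgeR and DESeq2 called 0 higher. Lower at an unadjusted p under 0.05 were 2, Npas3 and Sox6. The fall was that of Npas3, a factor with a basic helix-loop-helix and a PAS domain, at 144 and 131 CPM with the p53 activator against 199 and 183 CPM in DMSO (-0.47, limma adjusted p = 8.3e-07). The partners of Lhx6 in the medial eminence lineage did not pass the test. Sox6 stood at 74.8 and 62.8 CPM against 86.1 and 70.2 CPM in DMSO (limma, adjusted p = 0.0982), and Satb1 at 126 and 124 CPM against 111 and 118 CPM. Factors of the caudal eminence lineage were likewise not called, with Nr2f2 at 14.6 CPM in each p53 activator library against 13.6 and 12.3 CPM in DMSO and Prox1 at 11.5 and 11.3 CPM against 10.4 and 11.4 CPM. Nr2f1 (log2 fold change 0.17) was above DMSO in both libraries without a call.

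Of the 6 genes of the GABA machinery, 5 rose and 0 fell, with a median log2 fold change of 0.32. That is 83.3% called higher, beside 16.9% of all genes tested and 21.2% of protein-coding genes. Slc32a1, the vesicular GABA transporter, stood at 88.9 and 92.6 CPM with the p53 activator, against 56.6 and 64.4 CPM in DMSO (0.58, limma adjusted p = 1.51e-08). Gad2 had a log2 fold change of 0.34 and Gad1 of 0.31. The count of 5 was 3 on rescaling within protein-coding genes and with quantile normalization, and 2 after cyclic loess and in limma without trend.

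Of 30 markers of interneuron subtypes, 28 were listed and 24 tested, and 8 rose and 0 fell (median log2 fold change 0.21), which is 33.3% called higher, beside 16.9% of all genes tested and 21.2% of protein-coding genes, and 33.2% of all genes called in either direction. Ndnf, a marker of neurogliaform cells, stood at 34.4 and 33.4 CPM with the p53 activator, against 20.9 and 26.5 CPM in DMSO (0.51), a call that was lost without DMSO replicate 1 (0.35, adjusted p = 0.0507) and in limma without trend (adjusted p = 0.0512). Grin3a, an NMDA receptor subunit found in somatostatin cells, had a log2 fold change of 0.47 and Calb1, the gene of calbindin, of 0.40. The peptides that define the main classes were not called. Sst stood at 61.7 and 58.5 CPM with the p53 activator and 50.4 and 58.5 CPM in DMSO, Vip at 11.7 and 7.96 CPM against 6.99 and 9.89 CPM, and Npy at 3.88 and 3.22 CPM against 4.73 and 4.28 CPM. Pvalb, the marker of fast-spiking cells, was at 0.262 and 0.282 CPM with the p53 activator and 0.206 and 0.134 CPM in DMSO, too low to test. The count of 8 was 5 on rescaling within protein-coding genes and 1 in limma without trend.

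The partners of reelin and ErbB4 were mostly not called. Of 17 reelin signalling genes 5 rose and 0 fell (median 0.18), which is 29.4% called higher, beside the same 16.9% and 21.2%. In the GABA, subtype and reelin lists 0 genes were lower in limma, in edgeR and in DESeq2, and 0 at an unadjusted p under 0.05. The shares called lower by limma were 16.3% of all genes tested and only 7.19% of protein-coding genes, so few would be looked for in lists this short. The reelin receptor Vldlr stood at 191 CPM in each p53 activator library, against 159 and 169 CPM in DMSO (0.22, limma adjusted p = 0.0211), a call that was lost on rescaling within protein-coding genes (0.07, adjusted p = 0.546) and on leaving out either p53 activator library or DMSO replicate 1. Lrp8, the other receptor, had a log2 fold change of 0.04, and so had the adaptor Dab1, both with a sign that turned under protein-coding scaling. Cdk5r1, the activator of the kinase Cdk5, and the adaptor Crk rose by 0.35 each. The count of 5 was 3 on rescaling within protein-coding genes, and 0 after cyclic loess and in limma without trend. Of 11 tested neuregulin and ErbB genes 3 rose and 1 fell (median 0.15), or 27.3% and 9.09%, beside 16.9% and 16.3% of all genes tested. The neuregulin protease gene Bace1 rose by 0.43 and Adam10 by 0.24. Nrg2, an ErbB4 ligand, fell at 14.2 and 11.8 CPM with the p53 activator against 17.8 and 16.2 CPM in DMSO (-0.37). The Adam10 call was lost in edgeR (adjusted p = 0.0804), in DESeq2 (0.103) and on rescaling within protein-coding genes (0.424). Bace1, Adam10 and Nrg2 all lost their calls in limma without trend (adjusted p = 0.0653, 0.142 and 0.0897), and Nrg2 also in DESeq2 (0.101). The ligands Nrg1 (-0.07) and Nrg3 (0.01) were not called. Without DMSO replicate 1, 0 of these genes rose and 0 fell, and without p53 activator replicate 2, 1 rose and 0 fell.

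**Figure D4:**
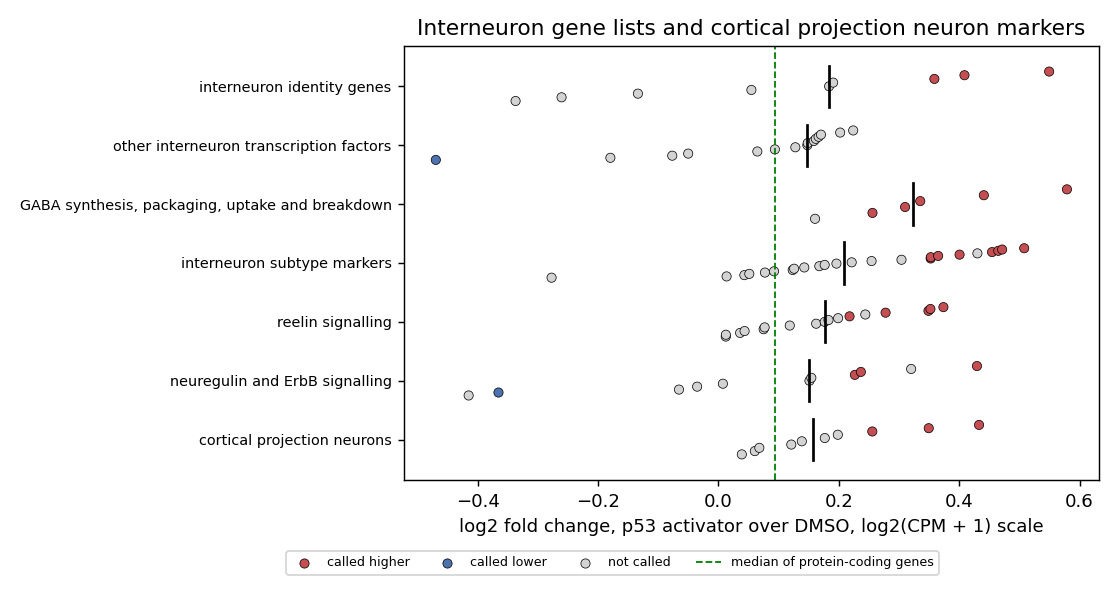
log2 fold changes, p53 activator over DMSO on the log2(CPM + 1) scale, with a point per tested gene of each list, coloured by the limma call, and a black bar at the list's median; the dashed line is the protein-coding median of 0.09. The members span from -0.34 to 0.55, while the GABA list lies wholly to the right of the line.

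Markers of other cells in the cultures moved as follows, and their part in the member results was not tested. Of 7 markers of neurons of any type, 4 rose and 1 fell, or 57.1% and 14.3%, beside 16.9% and 16.3% of all genes tested. Their median log2 fold change was 0.38, beside medians of 0.03 over all genes tested and 0.09 over protein-coding genes. Tubb3, a neuronal tubulin, rose by 0.55, the neurofilament gene Nefl by 0.45, and the synaptic vesicle and fusion genes Syt1 and Snap25 by 0.43 and 0.38, while Rbfox3, the gene of NeuN, fell by 0.27. Their summed CPM was 6881 and 6986 with the p53 activator and 6059 and 6772 in DMSO, with Map2 the most abundant. Cortical projection neuron markers were all listed, 10 of 10, with summed CPM of 895 and 941 with the p53 activator and 724 and 797 in DMSO, and Slc17a7, the cortical vesicular glutamate transporter, rose by 0.43 on the log2 scale. Reln and Calb2 are also made by Cajal-Retzius cells. Of 7 markers of those cells 3 were listed, Trp73, Lhx5 and Nhlh2, each under 1 CPM in every library, with sums of 1.36 and 1.30 CPM with the p53 activator and 1.23 and 0.935 CPM in DMSO. Striatal projection neurons, which share the Dlx genes and Sp9 in their precursors, had 9 of 9 markers listed, with sums of 284 and 286 CPM against 244 and 257 CPM in DMSO, with Pde10a the most abundant of them, while Isl1 was under 1 CPM throughout. The sums were 1231 and 1205 CPM against 1142 and 1102 CPM for 9 of 10 astrocyte markers and 191 and 188 CPM against 173 and 166 CPM for 8 of 10 oligodendrocyte lineage markers. Markers of dividing cells and progenitors (9 of 9) summed to 136 and 139 CPM against 158 and 150 CPM in DMSO. Microglial markers (3 of 9, under 5 CPM in sum) and vascular and fibroblast markers (6 of 10, 18.6 and 21.2 CPM against 21.7 and 20.8 CPM) were low. Of the 6 vascular and fibroblast genes tested, with a median log2 fold change of -0.16, the endothelial receptor gene Kdr rose, at 1.10 and 1.24 CPM against 0.343 and 0.601 CPM in DMSO, on 5 and 9 reads in DMSO, and lost its call without either DMSO library and in DESeq2 (adjusted p = 0.341, 0.0833 and 0.227). Tek, another endothelial receptor gene, had a log2 fold change of -0.52 and the collagen gene Col1a1 of -0.43, neither called. None of the listed markers of these lists was at 0 in a library.

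The tested genes whose values over the 4 libraries lay closest to the average pattern of the 9 members were Eri1, Natd1 and Cpsf7, at Euclidean distances of 0.00556, 0.00996 and 0.0119 between centred log2(CPM + 1) values. Each had a log2 fold change of 0.11 and none was called. The members themselves ran from -0.34 to 0.55, so a gene close to their average need not be close to any given member.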

How the data were processed

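Per the labels' protocols, RNA was isolated from cultured mouse neurons in TRIzol and ribosomal RNA was removed. The submitters' processing notes name TopHat2, Cufflinks 2.0.0 and the build mm9, with no role. Not given in the sources used here: the counter, its use of strand and of introns, and the annotation. The authors deposited 1 table of CPM per library, read as CPM from the values: 100% of values were whole multiples of 1 read within 0.01 reads. At these depths 1 read was worth 0.0525 and 0.0564 CPM in the p53 activator libraries and 0.0686 and 0.0668 CPM in the DMSO libraries.

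Testing covered the 16654 of 18854 genes that reached 1 CPM in 2 or more libraries. limma 3.58.1 in R 4.3.3 was fitted to log2(CPM + 1) with a trend of spread on expression and Benjamini-Hochberg adjustment, two-sided. There were 2 residual and 98 prior degrees of freedom, so the spread was largely borrowed across genes. The 1 added to CPM understates the fold changes of low genes, as for Dlx6os2, at -0.70 with 1 added and -0.96 with 0.1 added. edgeR 4.0.16 and DESeq2 1.42.0 were run on the recovered reads as alternatives. The comparison was also simulated 10 times (median 16559 genes), with 200 genes changed per run and no shift in mitochondrial share. There limma found 22.8% of the smallest changes simulated, which were under 1.5-fold, 73.0% of 1.5-fold and 92.6% of 2-fold changes. False calls made up 5.50% of its calls. Far more genes were called in the real data, so these rates may not hold there.

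The members and lists were chosen with earlier results of these data known. All members, a fixed set of partners, the 2 called genes of smallest p in each direction of each list, and of each marker list the most abundant gene and the called gene of smallest p were named; others, such as the remaining subtype and marker genes with values, were picked with their values in view. Some genes that the rule names are not reported here. Gene classes, overlaps and lengths came from GENCODE vM21, in which 15861 symbols matched 1 gene and whose build differs from mm9, and promoters came from RefSeq by symbol.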

Additional observations from a re-analysis of the deposited data

How the results depend on the processing

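Settings were changed in 17 ways. Reln and Calb2 stayed called higher in each, and the members called higher numbered 2 to 4. The log2 fold changes of the named genes kept sign and side of the threshold in 758 of 886 repeats, lost the call in 65, gained it in 24 and turned sign in 39.

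Rescaling within protein-coding genes gave 554 genes higher and 1666 lower in all, 1 member lower, 3 other interneuron transcription factors lower, 3 GABA, 5 subtype and 3 reelin genes higher and 1 neuregulin gene higher. Cyclic loess on these genes gave 642 higher and 1250 lower, 1 member and 3 factors lower, 2 GABA, 0 reelin and 1 neuregulin gene higher. Quantile normalization gave 1632 higher in all, 2 factors lower, 3 GABA and 2 reelin genes higher and 0 neuregulin genes lower. limma without trend gave 302 higher in all, 2 GABA, 1 subtype, 0 reelin and 0 neuregulin genes higher and 0 neuregulin genes lower. edgeR gave 1786 higher in all, 1 member lower and 1 neuregulin gene higher. DESeq2 gave 1123 higher and 1575 lower, 3 reelin and 1 neuregulin gene higher and 0 neuregulin genes lower. CPM rescaled by TMM factors gave 1 neuregulin gene higher, no filter 0 neuregulin genes lower, and a minimum of 5 CPM 1776 genes lower in all.

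The titles number the samples 1 and 2 in both groups, but no label says that a number marks a shared culture. Deviations of same-numbered libraries correlated at 0.12 over genes. With 2 libraries per group this is a single value, so it cannot settle whether same-numbered libraries share a culture. With a replicate block in limma, 3705 genes were higher and 3132 lower in all. In that fit 1 member, Dlx1, and 2 factors were lower, and 4 members, Erbb4 among them (adjusted p = 0.0107), 1 factor and 8 reelin genes were higher.

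Without each library in turn, the genes higher in all numbered 1140 to 2119 and those lower 1367 to 2543. Members called higher were 2 to 3 and lower 0 to 1, factors lower 1 to 2, subtype genes higher 4 to 9, reelin genes higher 3 to 4, and neuregulin genes higher 0 to 3 and lower 0 to 2.

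Signs turned for genes with no call in the first place. On rescaling within protein-coding genes they were Dlx2 (-0.064), Sst (-0.0053), Satb1 (-0.022), Prox1 (-0.075), Lrp8 (-0.11), Dab1 (-0.11), Nrg3 (-0.14), Pde10a (-0.00078), Eri1 (-0.030), Natd1 (-0.033) and Cpsf7 (-0.037). With cyclic loess they were Erbb4 (-0.017), Satb1 (-0.039), Lrp8 (-0.15), Dab1 (-0.12), Nrg3 (-0.15), Pde10a (-0.023), Slc1a3 (-0.031) and Cpsf7 (-0.0063). With quantile normalization they were Dlx5 (0.11), Lrp8 (-0.12), Dab1 (-0.081), Nrg3 (-0.11), Map2 (0.24, called there) and Dcn (0.041). In edgeR they were Lrp8 (-0.0059) and Nrg3 (-0.037). In DESeq2 it was Nrg3 (-0.017). With TMM factors on CPM it was Nrg3 (-0.025). Leaving out each library in turn, some value had the other sign for Dlx2 (-0.0062 to 0.12), Dlx5 (-0.31 to 0.038), Sp9 (-0.14 to 0.51), Vip (-0.058 to 0.45), Lrp8 (-0.015 to 0.087), Dab1 (-0.0010 to 0.088), Nrg3 (-0.0084 to 0.023) and Dcn (-0.15 to 0.085). The causes were not tested. Depth limits Dlx2, Dlx5 and Dlx6 most, which had 34 to 66 reads per library.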
